A study of Mus musculus with 12 samples.

Results

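The difference in gene expression between Alport syndrome (AS) and wild-type (WT) mice was compared between the bright and the dim subpopulation of cells that the study sorted as glomerular endothelial cells (GEC). In RNA, marker genes bear out that name for bright cells and not for dim ones, in which myeloid markers exceeded endothelial markers. By flow cytometry, the paper reports nearly all cells of both subpopulations positive for the endothelial protein Ehd3. It reports almost none with the podocyte protein WT1. AS mice lacked functional Col4a5 (Col4a5-/-, the B6.Cg-Col4a5tm1Yseg/J line) and WT mice did not, and both carried Tek-Cre and a Rosa26 tdTomato (tdT) reporter on a C57BL/6 background at 4 months of age. Glomeruli were sieved from renal cortex and digested, and cells were sorted by tdT brightness, so that each of 3 AS and 3 WT mice gave a dim and a bright RNA library (12 libraries, 3 per group, named here WT-dim, AS-dim, WT-bright and AS-bright). The reporter marks any cell with a history of Cre under the Tek promoter, and Tek-Cre lines are known to recombine in haematopoietic cells besides endothelium. Of 19564 genes listed in the table of either subpopulation, 15768 stood in both and 15084 had enough counts to be tested.

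For each gene, the log2 fold change of AS over WT was taken in bright and in dim cells, and the interaction is the first minus the second. A positive interaction therefore means that AS cells were higher relative to WT in bright than in dim cells, whether because the gene was higher in AS-bright, lower in AS-dim, or both. A gene was called when the Benjamini-Hochberg adjusted p of edgeR's quasi-likelihood test was below 0.05. Levels are given in CPM (the read count of a gene relative to the total of its library), scaled by the trimmed mean of M values, for mice 1, 2 and 3 of a group in that order.

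The glomerular endothelium is a fenestrated lining of the capillary loops that rests on a basement membrane shared with podocytes, the epithelial cells on its outer side. The collagen IV network of the mature membrane is built from the chains encoded by Col4a3, Col4a4 and Col4a5, which podocytes secrete, whereas endothelial and mesangial cells make the Col4a1 and Col4a2 chains. Alport syndrome follows from loss of any chain of the former network. Endothelial identity is held by the receptor tyrosine kinases Kdr, Tek and Tie1, by junction proteins such as Cdh5 and Cldn5, and by a set of transcription factors that includes the Sox and ETS families.

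Each library held between 11440169 and 15074909 counts on genes, and the genes common to both tables took 99.1% or more of them. Col4a5, the targeted gene, stood at 67.6, 37.1 and 73.9 CPM in WT-dim, 3.60, 1.99 and 1.36 in AS-dim, 10, 4.92 and 5.13 in WT-bright and 3.13, 6.79 and 4.00 in AS-bright. AS-dim lay far below WT-dim, while AS-bright and WT-bright overlapped. Col4a3 and Col4a4, which were not targeted, were also lower in AS-dim (given below). The level of Col4a5 is therefore no check of the genotype labels on its own, in dim or in bright libraries. The summed level of 22 endothelial markers ranged from 13376 to 22515 CPM in bright libraries, from 1362 to 1919 in WT-dim and from 663 to 844 in AS-dim. The dim libraries also held myeloid markers (16 genes, summed level 6312 to 11540 CPM in WT-dim and 13287 to 17231 in AS-dim, against 177 to 387 in bright) and T and NK cell markers (11 genes, 2181 to 2969 CPM in dim against 18.2 to 31.2 in bright). Within every dim library the summed myeloid level also exceeded the summed endothelial level (sums of CPM not scaled for gene length), so the dim groups are called dim cells here and not GEC. Cd3d, Cd3e, Cd3g, Cd4 and Itgam were not listed in the table of bright cells.

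The genotype effect differed between bright and dim in 569 genes, which is 3.77% of those tested. In 446 genes (2.96%) AS was higher relative to WT in bright than in dim, and in 123 genes (0.815%) it was lower. The median interaction over all genes tested was 0.128 log2 units and was -0.030 when libraries were scaled by their totals alone, so values are read against a baseline that moves by more than 0.1 with the scaling. An unadjusted p below 0.05 was reached by 2783 genes. The difference between bright and dim within each mouse gave the same picture for single animals: all 3 AS mice lay above all 3 WT mice in 443 of the 446 genes called higher, and below in all 123 called lower, against 14.9% and 10.4% of all genes tested, respectively. The interaction is built from the same differences, so these counts describe the calls and do not support them. An exact permutation test of 3 against 3 mice cannot give a two-sided p below 0.1.

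Most of the calls came from the dim cells. In the same fit, AS-dim was lower than WT-dim in 1570 genes (10.4%) and higher in 536 (3.55%), while AS-bright was lower than WT-bright in 71 (0.471%) and higher in 68 (0.451%). Of the 446 genes called higher, 401 were called lower in AS-dim with no call in bright, 12 were called higher in AS-bright with no call in dim, 2 were called in both subpopulations in opposite directions, and 31 had a call in neither. The median over the 446 was -2.26 for the dim effect and 0.397 for the bright effect, and the bright effect was within 1 log2 unit of 0 in 380. Of the 123 genes called lower, 48 were called higher in AS-dim with no call in bright, 26 lower in AS-bright with no call in dim, 4 in both subpopulations in opposite directions, and 45 in neither. Here the larger part lay in bright cells, with a median bright effect of -2.11 and a median dim effect of 1.27.

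**Figure D1:**
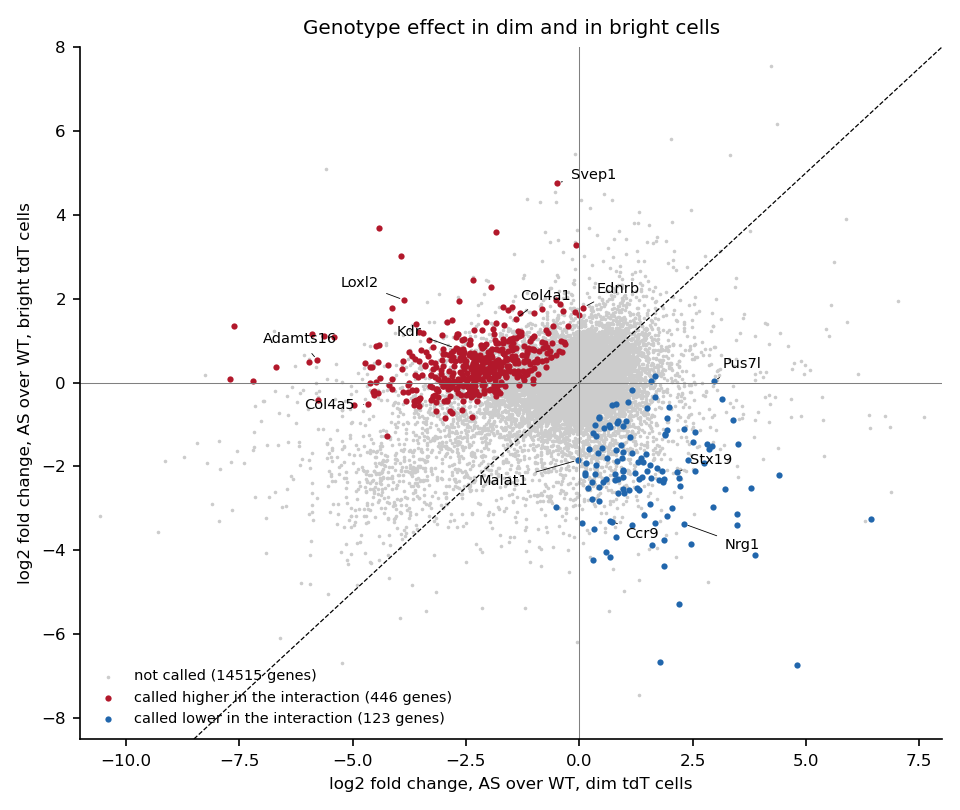
Log2 fold change of AS over WT in dim cells (x axis) against bright cells (y axis) for the 15084 genes tested, each point a gene; the dashed diagonal marks equal effects. The 446 genes called higher (red) lie above the diagonal, mostly left of 0 in dim and near 0 in bright, and the 123 called lower (blue) lie below it, mostly right of 0 in dim and below 0 in bright.

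Endothelial markers made up the clearest group. Of the 22 tested, 14 were called higher and none lower, with a median interaction of 2.55, a median bright effect of 0.47 and a median dim effect of -2.16. Kdr, the main receptor for VEGF-A (chr5:75932827-75978458, minus strand, GRCm38), was measured at 158, 166 and 109 CPM in WT-dim, 16, 27.3 and 22.2 in AS-dim, 1180, 2075 and 1598 in WT-bright and 3238, 3194 and 2148 in AS-bright. All AS-dim libraries lay below all WT-dim libraries and all AS-bright above all WT-bright. The interaction of Kdr was 3.55 ± 0.40 (SE; adjusted p = 0.00222), formed by a 6.63-fold lower level in AS-dim (adjusted p = 0.000327) and a 1.77-fold ratio in bright that did not pass (adjusted p = 0.128). Tek, the angiopoietin receptor whose promoter drives the Cre of this reporter, was at 19.6, 17.2 and 10.5 CPM in WT-dim and 3.04, 2.57 and 2.31 in AS-dim, and at 136, 272 and 175 in WT-bright and 263, 257 and 246 in AS-bright. The genotypes were separate in dim and overlapped in bright, and the interaction was 2.96 ± 0.44 (adjusted p = 0.00432). In bulk RNA, fewer cells of a type and less RNA per cell cannot be told apart.

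The other called markers had the same form. Cdh5, the adhesion molecule of endothelial junctions, was at 46.7, 55.9 and 21.8 CPM in WT-dim, 8.69, 10.3 and 13.1 in AS-dim, 530, 876 and 674 in WT-bright and 1083, 994 and 1189 in AS-bright (interaction 2.61 ± 0.44, adjusted p = 0.00652). Cldn5, a tight junction protein, was at 16, 16.7 and 22.9 CPM in WT-dim, 2.90, 3.15 and 2.63 in AS-dim, 32.2, 19.3 and 48.5 in WT-bright and 64.8, 53.6 and 106 in AS-bright (3.84 ± 0.54, adjusted p = 0.00426). For Cdh5 and Cldn5 the AS libraries stood below WT in dim and above WT in bright, with no overlap in either. Emcn, a sialomucin of the capillary surface, was at 340, 307 and 227 CPM in WT-dim and 29.4, 42.3 and 49.8 in AS-dim, while WT-bright (3939, 3508 and 4980) and AS-bright (3251, 3524 and 3166) overlapped (2.52 ± 0.33, adjusted p = 0.00348). Eng, Egfl7, Ptprb and Esam followed with interactions between 2.33 and 2.76. These 9 genes remained called with each of the 12 libraries left out in turn. Sox17, Tie1, Cd34, Robo4 and Pecam1 were also called and lost the call in some of those fits, and without AS-dim mouse 1 the list held 10 calls.

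The 8 uncalled endothelial markers were Ehd3, Flt1, Erg, Fli1, Sox18, Plvap, Vwf and Nos3. Ehd3, an endocytic protein enriched in GEC, had an interaction of 2.15 ± 0.58 (adjusted p = 0.0573). It passed once mouse was a term of the model (adjusted p = 0.0254). Vwf, the platelet-binding glycoprotein of larger vessels, had the lowest value of the list at -0.96 (adjusted p = 0.398). The proximal tubule and myeloid markers, which also differed between the groups, are given below. The endothelial list held 14 calls with the proximal tubule marker mean as a covariate and 15 with the leukocyte marker mean. The leukocyte mean (log2 CPM) was 6.67 to 7.39 in dim libraries and -0.06 to 1.15 in bright ones, so it mainly follows the subpopulation. These counts are no test of cell mixture, whose part in the calls was not tested.

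**Figure D2:**
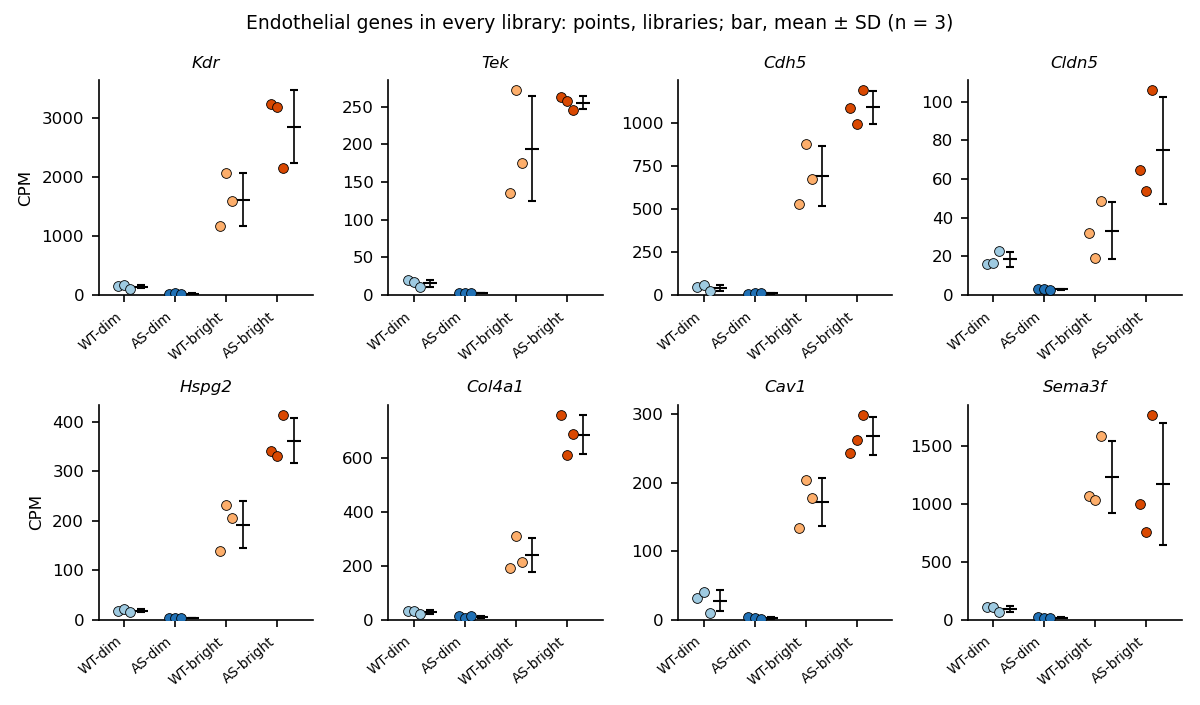
Levels of 8 endothelial genes in CPM (y axis, linear, from 0) in the 4 groups (x axis), with a point for each library and a bar for the mean ± SD (n = 3). AS-dim is below WT-dim in every panel, as for Kdr at 16 to 27.3 CPM against 109 to 166, while AS-bright lies above WT-bright for 6 genes and overlaps it for Tek and Sema3f.

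Since these genes moved together, the 250 bases before the RefSeq starts (build GRCm38.p6) of 3 endothelial receptor genes are shown, in lower case with any match to the 3 motifs searched in capitals. The motifs, counted on either strand, were CCGGAAG (the core of ETS sites), GTTAAT (a short HNF1 motif) and TGGGAA (the core of RBPJ sites, which shares the letters GGAA with the first). Kdr lies on the minus strand of chromosome 5 (chr5:75978456-75978705), Tek on the plus strand of chromosome 4 (chr4:94739039-94739288) and Tie1 on the minus strand of chromosome 4 (chr4:118489850-118490099).
Kdr: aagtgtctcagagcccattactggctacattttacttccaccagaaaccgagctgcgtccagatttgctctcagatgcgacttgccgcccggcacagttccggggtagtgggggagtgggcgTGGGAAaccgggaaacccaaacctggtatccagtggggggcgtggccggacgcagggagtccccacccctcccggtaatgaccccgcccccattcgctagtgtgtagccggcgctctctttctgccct
Tek: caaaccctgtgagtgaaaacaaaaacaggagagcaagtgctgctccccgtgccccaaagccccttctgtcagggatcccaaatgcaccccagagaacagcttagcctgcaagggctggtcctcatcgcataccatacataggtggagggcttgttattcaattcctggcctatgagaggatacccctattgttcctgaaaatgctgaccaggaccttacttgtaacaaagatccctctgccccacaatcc
Tie1: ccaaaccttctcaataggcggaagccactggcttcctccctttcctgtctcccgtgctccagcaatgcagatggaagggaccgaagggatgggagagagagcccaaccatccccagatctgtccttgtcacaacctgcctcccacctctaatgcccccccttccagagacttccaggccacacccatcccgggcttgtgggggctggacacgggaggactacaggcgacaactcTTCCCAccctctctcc
The windows of Kdr and Tie1 hold an RBPJ core and that of Tek holds none of the 3 motifs. Promoters were found for 332 of the 446 genes called higher. Among their 450 promoters, 4.00% held the ETS core, against 12.8% over the promoters of all genes tested and 6.91% over all promoters in the RefSeq table. The HNF1 motif was in 4.00% against 4.40%, and the RBPJ core in 22.9% against 20.8%. Among the 48 promoters of genes called lower the shares were 8.33%, 2.08% and 10.4%. These matches describe the letters only.

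Genes of the basement membrane gave 12 calls out of 21 tested, all higher, with a median interaction of 2.26. Col4a1 and Col4a2, neighbours on chromosome 8 that are read away from each other, were the only protein-coding genes called in both subpopulations in opposite directions. Col4a1 (chr8:11198423-11312826, minus strand) was at 34.1, 33.5 and 20.3 CPM in WT-dim, 12.5, 6.55 and 14.2 in AS-dim, 193, 310 and 214 in WT-bright and 758, 612 and 688 in AS-bright. It was 2.64-fold lower in AS-dim (adjusted p = 0.0113) and 2.87-fold higher in AS-bright (adjusted p = 0.034), for an interaction of 2.92 ± 0.42 (adjusted p = 0.00426). Col4a2 (chr8:11312805-11449287, plus strand) was at 15.3, 12.2 and 9.19 CPM in WT-dim, 6.43, 6.22 and 5.59 in AS-dim, 88.6, 126 and 91.1 in WT-bright and 337, 258 and 366 in AS-bright. It was 2.01-fold lower in AS-dim (adjusted p = 0.0277) and 3.15-fold higher in AS-bright (adjusted p = 0.0145), for an interaction of 2.66 ± 0.36 (adjusted p = 0.00357). For both genes the AS and WT libraries did not overlap in either subpopulation. The genes overlap at their starts and each has overlapping genes on the other strand, and which strand column was counted is not given in the sources used here.

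The 3 chains of the mature network were also called, and unlike Col4a1 and Col4a2 they were more abundant in dim than in bright cells of WT mice. Col4a3 was at 54.6, 59.0 and 45.3 CPM in WT-dim, 14.3, 16.4 and 14.1 in AS-dim, 22.1, 25.1 and 16.5 in WT-bright and 21.6, 42.9 and 20.5 in AS-bright (interaction 2.25 ± 0.44, adjusted p = 0.0133). Col4a4 was at 179, 227 and 238 CPM in WT-dim, 44.6, 57.7 and 26.8 in AS-dim, 93.7, 78.0 and 71.0 in WT-bright and 57.6, 110 and 68.7 in AS-bright (2.28 ± 0.42, adjusted p = 0.0107). Col4a5, whose libraries are given above, had an interaction of 4.14 ± 0.66 (adjusted p = 0.00515), with a 25.2-fold lower level in AS-dim (adjusted p = 0.000263) and no call in bright (adjusted p = 0.56). For the 3 genes the genotypes separated in dim and overlapped in bright. The tm1Yseg allele carries a premature stop codon, so a transcript can still be counted.

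Hspg2, the heparan sulfate proteoglycan perlecan, was at 17.3, 21.7 and 16 CPM in WT-dim, 3.53, 3.90 and 2.95 in AS-dim, 139, 232 and 206 in WT-bright and 341, 330 and 414 in AS-bright. AS lay below WT in dim and above WT in bright without overlap, and the interaction of 3.32 ± 0.35 was among the most certain (adjusted p = 0.00222). Pxdn, the peroxidase that crosslinks collagen IV, had an interaction of 2.45 ± 0.28 (adjusted p = 0.00222) and Sparc, a collagen-binding glycoprotein, 2.58 ± 0.37 (adjusted p = 0.00426). Lamc1, Lama3, Col18a1 and Agrn completed the calls with adjusted p between 0.0164 and 0.0494. The uncalled members included the laminins Lama5 (2.13, adjusted p = 0.0785) and Lamb2 (2.39, adjusted p = 0.0967), and the linker Nid1 (2.26, adjusted p = 0.076). Without AS-dim mouse 1 the list held 9 calls, and with the leukocyte marker mean as a covariate it held 8.

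Matrix enzymes and interstitial matrix gave fewer calls. In the interstitial matrix list 3 of 19 were called (Loxl2, Svep1 and Col1a2; median interaction 0.48), and among metalloproteinases and their inhibitors 5 of 19 (median 0.96). The latter list held 2 to 4 calls with a library left out (2 without AS-dim mouse 2 or 3, WT-bright mouse 3, or AS-bright mouse 1 or 3; 3 without WT-dim mouse 1 or 2, AS-dim mouse 1, WT-bright mouse 2 or AS-bright mouse 2) and 2 when libraries were scaled by their totals alone. Loxl2, a lysyl oxidase of the collagen network, was at 6.84, 3.21 and 8.43 CPM in WT-dim, 0.424, 0.0829 and 0.718 in AS-dim, 3.10, 2.57 and 0.986 in WT-bright and 5.76, 8.29 and 12.2 in AS-bright (5.84 ± 0.87, adjusted p = 0.00426). The libraries of AS were all below those of WT in dim and all above in bright. Adamts1, which cleaves proteoglycans, and Timp3, an inhibitor bound to the matrix, had interactions of 2.61 ± 0.39 (adjusted p = 0.00432) and 3.64 ± 0.57 (adjusted p = 0.00494). The interstitial matrix and metalloproteinase lists also held members that went the other way. Interactions were above 0 in 12 of 19 members of each, with lowest values of -4.46 and -9.61. In each list 2 members were lower with an unadjusted p below 0.05. With mouse as a fixed term or the leukocyte marker mean as a covariate, 1 of the metalloproteinase list was called lower.

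Genes of junctions, caveolae and axon guidance were also called, and some of these lists share called members with the endothelial markers (Cdh5, Cldn5 and Esam in the junction list and Robo4 in the axon guidance list). In the junction list 7 of 17 genes were called higher and Krit1, a cytoplasmic regulator of junctions, was called lower and is named here after its value was seen (-1.27 ± 0.32, adjusted p = 0.0423), with a median of 1.6. Arhgap29, a GTPase-activating protein at junctions, was at 39.5, 53.0 and 26.0 CPM in WT-dim, 7.42, 7.54 and 5.99 in AS-dim, 155, 219 and 191 in WT-bright and 248, 284 and 275 in AS-bright, separate in both subpopulations (3.01 ± 0.37, adjusted p = 0.00256). In the caveolae and EHD list 5 of 12 genes were called, with a median of 1.83. Cav1, the main coat protein of caveolae, was at 31.7, 40.7 and 10.5 CPM in WT-dim, 3.75, 2.90 and 1.44 in AS-dim, 134, 204 and 178 in WT-bright and 244, 262 and 299 in AS-bright (3.98 ± 0.60, adjusted p = 0.00432). The cavins Cavin1, Cavin2 and Cavin3 and the caveolar neck ATPase Ehd2 were called in the same direction, with interactions between 1.52 and 2.94. The caveolae list held 3 calls without AS-dim mouse 1 or 2 or without AS-bright mouse 1 or 3.

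Of 25 axon guidance and ephrin genes, 12 were called higher and none lower, with a median of 2.19. Sema6a, Plxna2 and Ntn4, a transmembrane semaphorin, a plexin receptor and a netrin, had interactions of 2.88 ± 0.44 (adjusted p = 0.00474), 2.71 ± 0.44 (adjusted p = 0.00544) and 2.69 ± 0.47 (adjusted p = 0.00786). Sema3f, a secreted semaphorin, was at 113, 108 and 67.9 CPM in WT-dim, 21.9, 15.1 and 13.8 in AS-dim, 1069, 1040 and 1592 in WT-bright and 999, 762 and 1773 in AS-bright, so that the genotypes were apart in dim and overlapped in bright (2.44 ± 0.46, adjusted p = 0.012). The arterial ligand Efnb2 and its venous receptor Ephb4 were both called, at 1.96 ± 0.36 (adjusted p = 0.0104) and 2.85 ± 0.54 (adjusted p = 0.012). Efna1, Efnb1, Ephb1, Sema3g, Unc5b and Robo4 made up the rest.

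Among the VEGF and angiopoietin axes, the receptors Kdr, Tek and Tie1, the phosphatase Ptprb that acts on Tek, the ligand Vegfd and the Tie1-binding Svep1 were called (6 of 16, median 1.14), of which Kdr, Tek, Tie1 and Ptprb are counted among the endothelial markers too. The ligands Vegfa (0.04), Vegfb (0.65), Angpt1 (0.27) and Angpt2 (1.23) did not pass, with adjusted p between 0.579 and 0.967. Of 23 endothelial transcription factors 5 were called, with a median of 0.41. Epas1, the hypoxia-inducible factor of endothelium, was at 633, 668 and 426 CPM in WT-dim, 121, 111 and 111 in AS-dim, 3100, 6166 and 5264 in WT-bright and 3832, 3982 and 4048 in AS-bright, again apart in dim and overlapping in bright (2.04 ± 0.35, adjusted p = 0.00774). Foxc1, Tbx3, Sox17 and Gata5 had interactions between 2.68 and 4.24, while Fli1, Ets1, Klf2 and Klf4 lay between -0.84 and 0.41 with adjusted p between 0.234 and 0.745. This list held 3 calls without AS-dim mouse 1 or 2 and 8 without WT-dim mouse 3.

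In the remaining vascular lists the calls were few, and since 2.96% of all genes were called higher, counts of 1 to 3 say little about a list. Plat, the tissue plasminogen activator, was at 668, 590 and 622 CPM in WT-dim, 90.1, 89.4 and 126 in AS-dim, 5362, 7574 and 7896 in WT-bright and 13059, 7391 and 9550 in AS-bright (3.15 ± 0.36, adjusted p = 0.00222), apart in dim and overlapping in bright. It and the thrombin receptor F2r (1.75 ± 0.26, adjusted p = 0.00432) were the calls among 15 coagulation genes. Npr1, Ednrb and Ptgs1 were called out of 11 vasoactive genes, the ligand Dll4 out of 13 Notch genes (2.65 ± 0.42, adjusted p = 0.00515), Eng and Bmp6 out of 26 genes of the TGF-beta and BMP pathway, and Itga6 and Itga3 out of 15 integrin subunits. Ramp2, the co-receptor for adrenomedullin, was the call among 6 genes of the apelin and adrenomedullin systems (2.58 ± 0.48, adjusted p = 0.0108). Cx3cl1, Sele and Icam2 were called out of 16 adhesion and inflammatory genes. The adhesion list held 1 or 2 calls with any library left out (1 without WT-dim mouse 3, AS-dim mouse 1 or 2, WT-bright mouse 1 or 2, or AS-bright mouse 1 or 3) and 1 with the leukocyte marker mean as a covariate. Only Cx3cl1 kept its call throughout the fits that left out a library. The vasoactive list held 1 call without AS-bright mouse 1 or 2. The TGF-beta and BMP list held 4 without WT-dim mouse 3 and 1 without AS-dim mouse 1 or 3 or any bright library. The Notch list held 2 without WT-dim mouse 3, and the apelin and adrenomedullin list held 2 at most with a library left out.

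**Figure D3:**
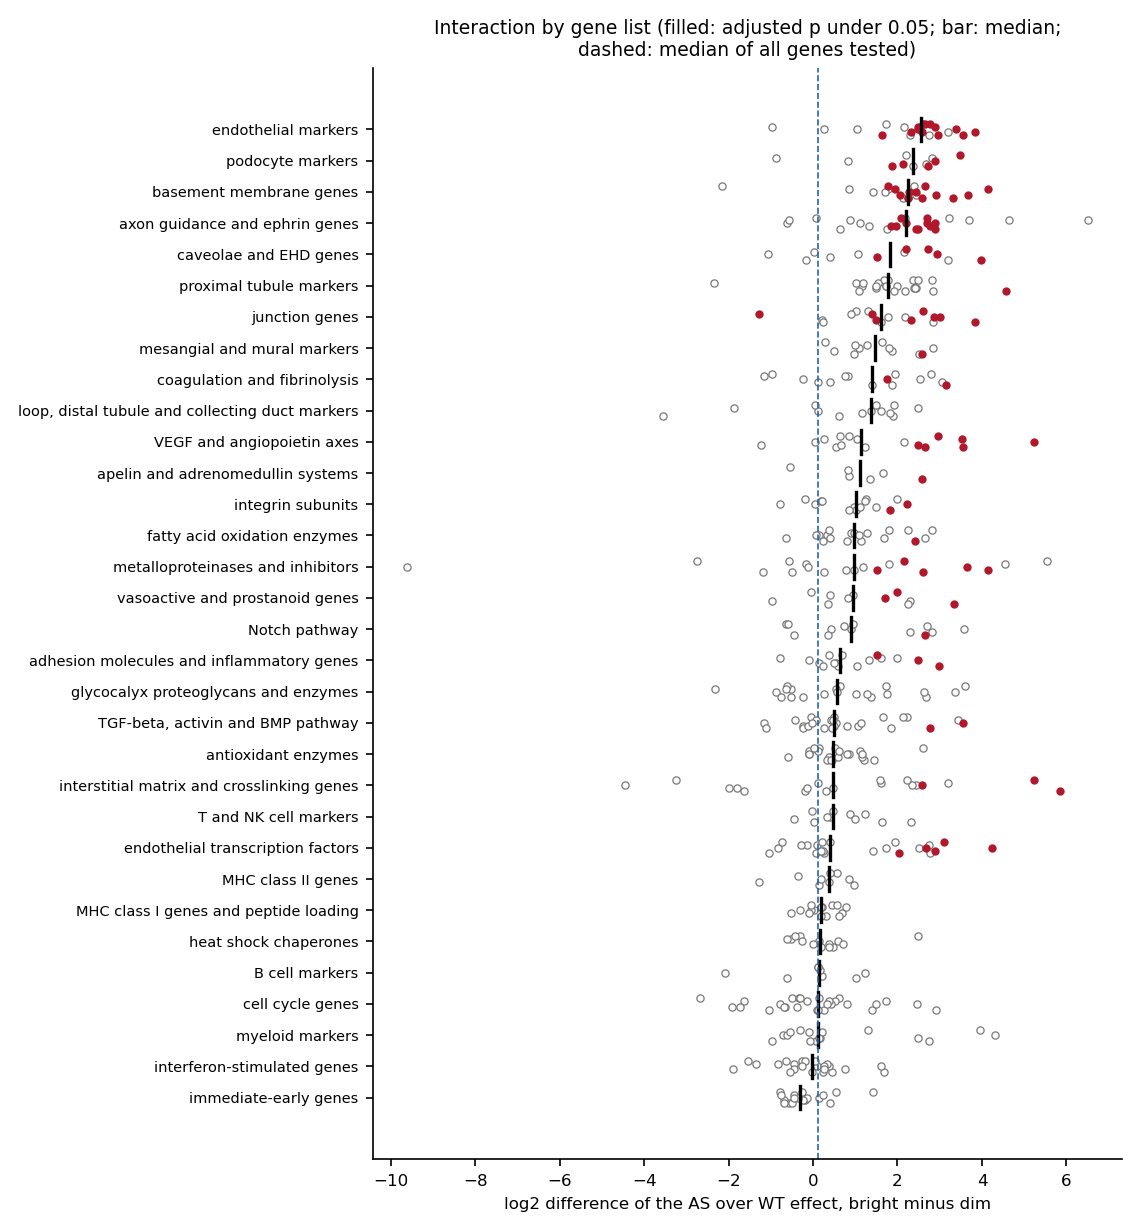
Interaction in log2 units (x axis) of each tested member of the gene lists (rows, ordered by median), filled where the adjusted p was under 0.05; the short bar is the list median and the dashed line the median of all genes, 0.128. Endothelial, podocyte, basement membrane and axon guidance lists have medians of 2.19 to 2.55, and myeloid, cell cycle, interferon-stimulated and immediate-early lists have medians of -0.30 to 0.11.

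Markers of other kidney cells moved too. Among 11 podocyte markers, 5 were called higher, among them Wt1, Nphs1, Synpo and Cdkn1c, with a median interaction of 2.37. The interaction was above 0 in 10 of the 11 and lowest at -0.87, and the unadjusted p was below 0.05 in 9 higher and 1 lower. In dim cells 5 of the 11 were called lower in AS and 1 was called higher. Wt1, the podocyte transcription factor, was at 32.3, 79.0 and 82.3 CPM in WT-dim, 17.4, 16.3 and 17.5 in AS-dim, 15.9, 17.2 and 16.8 in WT-bright and 26.4, 35.2 and 25.8 in AS-bright (2.73 ± 0.45, adjusted p = 0.00617). AS lay below WT in dim and above WT in bright without overlap. The summed level of the 11 markers was 644 to 1363 CPM in WT-dim, 759 to 817 in AS-dim, 197 to 324 in WT-bright and 366 to 555 in AS-bright. With the leukocyte marker mean as a covariate, 2 podocyte markers were called, and 3 without AS-dim mouse 1 or 3 or AS-bright mouse 1 or 2.

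Proximal tubule markers had median AS effects over 23 genes of -4.21 in dim and -2.37 in bright, and the median interaction was 1.78. Only Cyp4b1, a cytochrome also made by endothelium, was called: it was at 455, 111 and 80.3 CPM in WT-dim, 3.39, 19.6 and 3.83 in AS-dim, and overlapped between WT-bright (537, 528 and 420) and AS-bright (584, 381 and 496) (4.58 ± 0.92, adjusted p = 0.0157). With mouse as a fixed term of the model, 10 proximal tubule markers were called higher, whereas with mouse as a random effect (limma voom, estimated correlation 0.157) 1 was called higher and 1 lower. Without AS-dim mouse 2, 2 were called higher. The summed level was 2852 to 12644 CPM in WT-dim, the highest in mouse 1, 311 to 1019 in AS-dim, 1378 to 5379 in WT-bright and 691 to 1455 in AS-bright. The 13 markers of the loop, distal tubule and collecting duct had median AS effects of -2.93 in dim, where 8 were called lower, and -2.06 in bright, and a summed level of 782 to 1974 CPM in WT-dim, 48.7 to 301 in AS-dim, 437 to 585 in WT-bright and 29.8 to 271 in AS-bright. For the interaction none of them was called, with an unadjusted p below 0.05 in none and no call by DESeq2, while 1 was called higher with mouse as a fixed term and 1 lower with the proximal tubule marker mean as a covariate. Of 12 mesangial and mural markers Col1a2 was called. That list held 2 calls without WT-dim mouse 3 or WT-bright mouse 1 and none with the leukocyte marker mean as a covariate, where the adjusted p of Col1a2 by edgeR's quasi-likelihood test was 0.0503. The part of these cells in the calls above was not tested, and the fits with a marker covariate are no test of it.

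**Figure D4:**
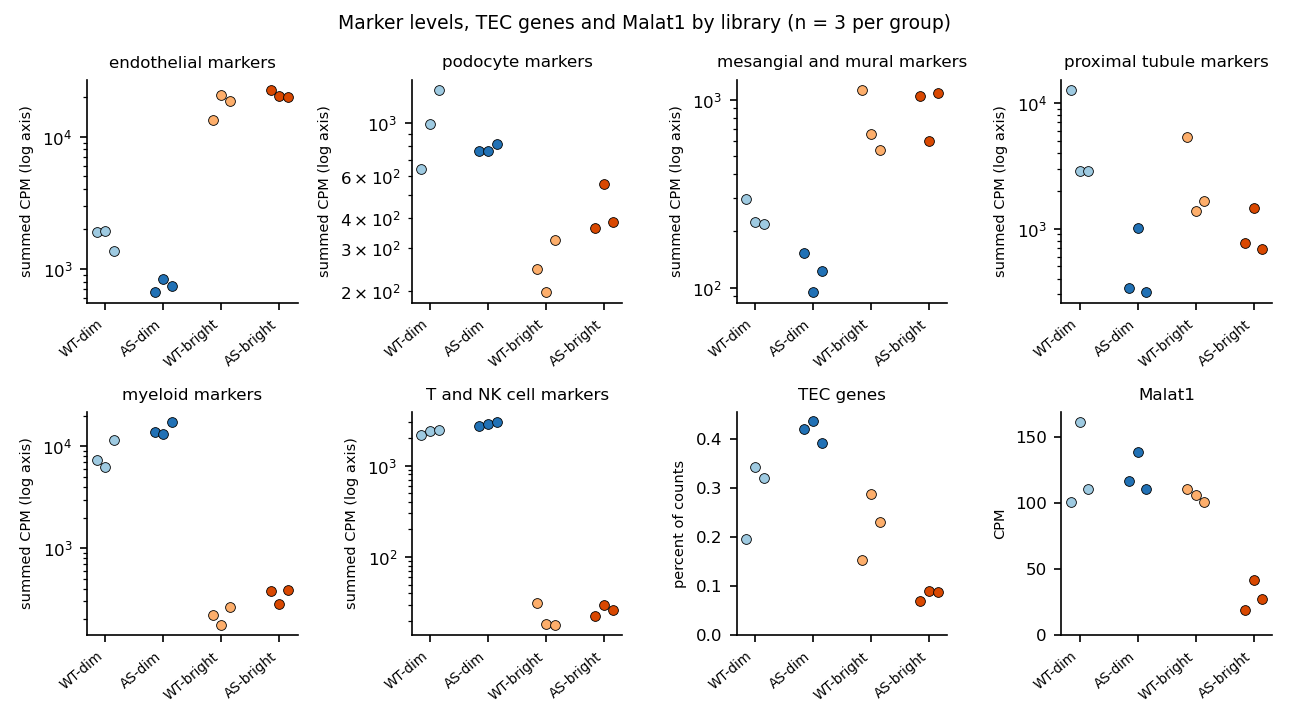
Summed CPM of 6 marker lists (log axes), share of counts on TEC genes in percent and CPM of Malat1 (linear axes from 0) in the 12 libraries, by group. Endothelial markers reach 13376 to 22515 CPM in bright and 663 to 1919 in dim, myeloid markers reach 6312 to 17231 in dim and 177 to 387 in bright, and TEC genes and Malat1 are lowest in AS-bright.

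The largest positive interactions belonged to genes with almost no counts in AS-dim. Among protein-coding genes called higher with an average log2 CPM above 1 and all AS mice above all WT mice, the 12 highest were Gchfr, Nova2, Stk32a, Scrn1, Hcar1, Pomgnt2, A4galt, Adamts16, Nsg1, Loxl2, Add2 and Galnt18. The first 8 had 3 counts or fewer in every AS-dim library, so their fitted values of 6.32 to 7.78 depend on the prior count. Against a floor of 3 counts per library, WT-dim was at least 31.4-fold higher than AS-dim for Gchfr, the feedback protein of tetrahydrobiopterin synthesis, at least 54.3-fold for the splicing regulator Nova2 and at least 14.3-fold for the metalloproteinase Adamts16. Adamts16 was at 2.81, 4.99 and 2.19 CPM in WT-dim, 0.141, 0.00 and 0.00 in AS-dim, 12.5, 18.3 and 17.0 in WT-bright and 25.1, 23 and 21.5 in AS-bright, and kept its call with each library left out (adjusted p = 0.00494). Galnt18, an O-glycosylation enzyme, was at 7.63, 45.9 and 20.4 CPM in WT-dim, 0.778, 1.91 and 0.638 in AS-dim, 41.5, 97.1 and 50.0 in WT-bright and 130, 110 and 104 in AS-bright (5.36 ± 0.85, adjusted p = 0.00494). Gchfr, Nova2, Scrn1, Hcar1 and Pomgnt2 had adjusted p between 0.0285 and 0.0494 and were called in 1 to 4 of the 12 fits that left out a library.

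The 12 genes called higher in AS-bright alone were Svep1, Ednrb, Sele, Col1a2, Tsc22d1, Calm3, Dusp6, Csrp1, Cenpb, Irf8, Traip and Ptk7. This group was named after its values were seen. Svep1, a large extracellular protein of vessel walls (chr4:58042442-58206859), was at 5.79, 4.22 and 1.77 CPM in WT-dim, 3.89, 2.24 and 2.15 in AS-dim, 0.127, 0.214 and 0.197 in WT-bright and 5.76, 6.07 and 3.28 in AS-bright. WT-bright had 3 counts or fewer in every library, so that AS-bright was at least 25.1-fold higher, and dim cells overlapped (interaction 5.24 ± 0.82, adjusted p = 0.00426). The call of Svep1 stood in each of the 32 alternatives. Ednrb, the endothelin B receptor, was at 15.3, 14.0 and 9.44 CPM in WT-dim, 9.33, 17.2 and 14.8 in AS-dim, 200, 262 and 305 in WT-bright and 864, 991 and 790 in AS-bright (1.70 ± 0.37, adjusted p = 0.0231). Its 3.45-fold higher level in AS-bright passed the test (adjusted p = 0.0145) and the dim effect of 0.09 did not.

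Sele, the cytokine-induced E-selectin, was at 1.67, 4.14 and 5.56 CPM in WT-dim, 1.98, 1.24 and 4.79 in AS-dim, 40.2, 59.0 and 49.8 in WT-bright and 152, 213 and 216 in AS-bright (2.48 ± 0.60, adjusted p = 0.0376), apart in bright and overlapping in dim. Its call stood in 2 of the 12 fits that left out a library. Tsc22d1, a leucine zipper regulator responsive to TGF-beta, was at 427, 356 and 394 CPM in WT-dim, 267, 303 and 221 in AS-dim, 1772, 2550 and 2259 in WT-bright and 6646, 3556 and 6666 in AS-bright (1.93 ± 0.35, adjusted p = 0.0107). Dusp6, a phosphatase induced by ERK signalling, was at 101, 144 and 123 CPM in WT-bright and 351, 268 and 320 in AS-bright, and the dim libraries (47.0 to 82.3 in WT and 35.9 to 73.4 in AS) overlapped (1.59 ± 0.39, adjusted p = 0.0396). Col1a2, a chain of fibrillar collagen, was at 15.1, 14.0 and 13.5 CPM in WT-bright and 59.2, 32.1 and 53.7 in AS-bright (2.59 ± 0.50, adjusted p = 0.0131), with 21.3 to 56.7 in WT-dim and 15.9 to 23.7 in AS-dim.

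Among the 123 genes called lower, 42 were protein-coding. Under the same conditions the lowest included Gria3, Nrg1, Stx19, Ccr9, Rhou, Pou5f2, B130006D01Rik, Kctd4, Pus7l, Gbp8 and Aoc2. Stx19, a syntaxin, was at 4.65, 6.00 and 2.78 CPM in WT-dim, 28.8, 19.0 and 11.8 in AS-dim, 8.04, 23.4 and 40.1 in WT-bright and 2.70, 6.85 and 6.70 in AS-bright (-4.28 ± 0.82, adjusted p = 0.0128). AS stood above WT in dim and below WT in bright without overlap, and the dim effect passed on its own (adjusted p = 0.0297) while the bright effect did not (adjusted p = 0.0783). Stx19 is on the study's own list of genes with inverse changes, which was chosen on these samples and so is no independent evidence.

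Ccr9, a chemokine receptor of T cells, was at 35.4, 77.5 and 41.8 CPM in WT-dim, 101, 82.6 and 71.8 in AS-dim, 3.73, 4.28 and 10.3 in WT-bright and 0.291, 1.11 and 0.364 in AS-bright (-4.04 ± 0.74, adjusted p = 0.0104). It was called lower in AS-bright (adjusted p = 0.036), where the libraries did not overlap, and shares its locus with 2 genes on the same strand. Nrg1, a ligand of the ErbB receptors, was at 7.02, 11.7 and 4.38 CPM in WT-dim, 24.7, 34.7 and 55.1 in AS-dim, 3.48, 0.0713 and 3.81 in WT-bright and 0.00, 0.587 and 0.0728 in AS-bright (-5.68 ± 1.22, adjusted p = 0.0168). Rhou, an atypical small GTPase, was at 44.0, 23.7 and 58.9 CPM in WT-dim, 100, 136 and 141 in AS-dim, 11.9, 3.92 and 8.29 in WT-bright and 1.09, 1.37 and 2.55 in AS-bright (-3.85 ± 0.64, adjusted p = 0.00614). Pus7l, a pseudouridine synthase, was apart in dim and overlapped in bright, at 0.614, 1.35 and 0.422 CPM in WT-dim and 7.49, 5.47 and 5.91 in AS-dim, against 3.54 to 6.38 in WT-bright and 3.98 to 5.46 in AS-bright (-2.93 ± 0.66, adjusted p = 0.0262).

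Atp13a3, a transporter of polyamines, was, of the 7 protein-coding genes called lower in AS-bright alone, the one with the smallest standard error, and like Rab43 it is named after its values were seen. It stood at 89.4, 95.3 and 73.7 CPM in WT-dim, 100, 111 and 122 in AS-dim, 206, 269 and 263 in WT-bright and 96.5, 121 and 89.7 in AS-bright (-1.63 ± 0.28, adjusted p = 0.00772), apart between genotypes in both. Rab43, a small GTPase of the Golgi, was at 835, 846 and 1618 CPM in WT-bright and 277, 174 and 280 in AS-bright, with 899 to 1896 in WT-dim and 1797 to 1930 in AS-dim (-2.52 ± 0.45, adjusted p = 0.00881). Rab43 overlaps 3 other genes on its strand. Atp13a3 and Rab43 kept their calls with each library left out.

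**Figure D5:**
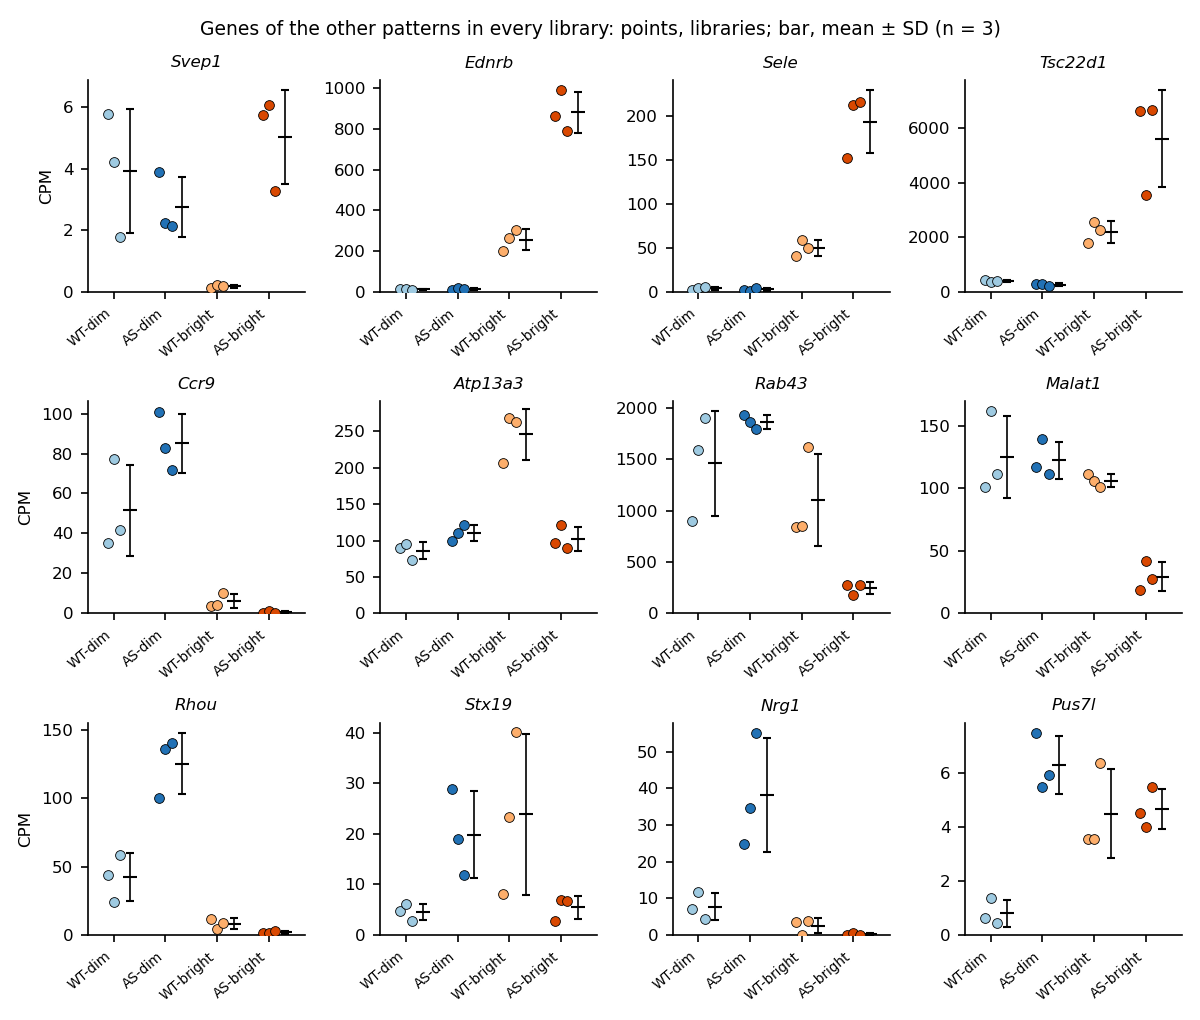
Levels in CPM (y axes, linear, from 0) of 12 genes outside the main pattern, by group, with a point for each library and a bar for the mean ± SD (n = 3). Svep1, Ednrb, Sele and Tsc22d1 are higher in AS-bright than in WT-bright, Ccr9, Atp13a3, Rab43 and Malat1 are lower in AS-bright than in WT-bright, Rhou and Stx19 have AS above WT in dim and below WT in bright, and Nrg1 and Pus7l have AS above WT in dim and overlap in bright.

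The remaining 81 genes called lower were not protein-coding, whereas 443 of the 446 genes called higher were. Protein-coding genes made up 82.6% of the genes tested and 34.1% of those called lower. Genes annotated as TEC (loci with transcripts that await experimental support) gave 42 of the lower calls out of 396 tested, sense-intronic genes 8 of 55, antisense genes 10 of 278 and lincRNAs 7 of 268. The shift ran through the whole classes: the median interaction was -1.88 over all TEC genes and -1.98 over all sense-intronic genes, against 0.18 over protein-coding genes. In both classes the bright effect was the larger part (medians -1.48 and -1.23, against 0.40 and 0.86 in dim). The 4 genes called in both subpopulations in opposite directions on this side were the TEC genes AC154176.2, Gm45223, AC125409.1 and Gm45220.

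Many of these loci lie inside other genes. Of the 81, 49 were nested in a tested protein-coding gene on the same strand, and none of the 44 host genes was called for the interaction, where 3.77% of all genes were. Overlap with another gene on the same strand was found for 56 of the 81 and for 775 of the 2631 genes tested that were not protein-coding. The nested genes had a median interaction of -3.61 and their hosts -0.10, with hosts ranging from -1.63 to 1.61. Gm45223, at chr7:90132492-90137629 within Picalm, was at 83.8, 141 and 165 CPM in WT-dim, 322, 355 and 404 in AS-dim, 26.6, 77.5 and 46.9 in WT-bright and 17.4, 13.8 and 14.9 in AS-bright (-3.18 ± 0.49, adjusted p = 0.00445). Picalm itself, a clathrin adaptor, had -0.37 (adjusted p = 0.699). AC125409.1, at chr12:99366544-99369913 within Foxn3, had -3.37 ± 0.53 (adjusted p = 0.00494), and Foxn3, a forkhead factor, -0.06 (adjusted p = 0.936). Reads on a nested gene can come from unspliced transcripts of its host, and the tables do not separate these.

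The lincRNA Malat1 was among the genes called lower. Malat1, a nuclear lincRNA that is named, like Neat1, after its values were seen, was at 101, 162 and 111 CPM in WT-dim, 117, 139 and 111 in AS-dim, 111, 106 and 101 in WT-bright and 18.8, 41.8 and 27.4 in AS-bright (-1.82 ± 0.39, adjusted p = 0.0203). Neat1, another nuclear lincRNA, was at 31.2, 26.1 and 23.1 CPM in WT-bright and 5.61, 13.6 and 6.77 in AS-bright (-1.99 ± 0.53, adjusted p = 0.0568). TEC genes took 0.0697% to 0.0888% of the counts in AS-bright, 0.152% to 0.287% in WT-bright, 0.195% to 0.342% in WT-dim and 0.392% to 0.436% in AS-dim. The 3 AS-bright libraries were the lowest of the 12 for both measures, which restates the calls since TEC genes and Malat1 are among them.

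The study's list of 26 genes with inverse changes between WT and AS had 25 tested members, of which 10 were called higher (Loxl2, Aif1l, Ak1, Col1a2, Enpep, Rassf10, Rbpms2, A4galt, Rdh1 and Oplah) and 4 lower (Stx19, Serpinf1 and Purg among them). Aif1l, an actin-binding protein, was at 182, 194 and 163 CPM in WT-dim, 31.0, 35.3 and 33.8 in AS-dim, 109, 52.9 and 70.1 in WT-bright and 68.7, 88.7 and 53.1 in AS-bright (2.29 ± 0.38, adjusted p = 0.00615), so that it differed in dim and overlapped in bright. Enpep, the aminopeptidase that trims angiotensin, had 3.07 ± 0.65 (adjusted p = 0.0201). The 11 other members had adjusted p between 0.0673 and 0.144. With mouse as a term the list held 13 calls higher and 8 lower, and with the leukocyte marker mean as a covariate 3 and 2. With a library left out, the calls higher were 4 without AS-bright mouse 2, 5 without AS-dim mouse 2 or 3 or AS-bright mouse 3, and 6 without AS-dim mouse 1, WT-bright mouse 2 or 3, or AS-bright mouse 1. The calls lower were 1 without AS-bright mouse 1 and 2 without WT-dim mouse 1, AS-dim mouse 1 or 3, WT-bright mouse 1, or AS-bright mouse 2 or 3. Of the study's list of inflammatory genes in bright cells 8 were tested and Sele alone was called. Tyro3, a receptor tyrosine kinase that is on both study lists, had the largest interaction of the 8 at 4.43 ± 1.42 and did not pass (adjusted p = 0.0991). Vcam1, Icam1, Ccl2, Zbp1, Lbp and Kit had interactions of 1.98, 0.14, 1.04, 1.68, 1.07 and 1.75, with adjusted p between 0.121 and 0.923. Vcam1 was higher in AS-bright (adjusted p = 0.0419) and its difference from dim did not pass.

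Of the further genes the study discusses, Aplnr, the apelin receptor, was at 0.0877, 0.507 and 0.00 CPM in WT-dim, 0.424, 1.57 and 1.52 in AS-dim, 0.316, 1.35 and 2.89 in WT-bright and 18.9, 29.7 and 30.6 in AS-bright. AS was higher than WT in bright without overlap (adjusted p = 0.00806), but the interaction was 1.65 ± 1.72 (adjusted p = 0.665), with few counts in dim. Sdc2 and Gpc4, heparan sulfate carriers of the glycocalyx, had 2.67 ± 0.76 (adjusted p = 0.0715) and 3.37 ± 0.92 (adjusted p = 0.0605), and were called with mouse as a term (adjusted p = 0.00558 and 0.00961). Ppargc1a, a regulator of mitochondrial genes, and Fabp3, a fatty acid binding protein, had interactions of 0.00 and -0.10 (adjusted p = 0.997 and 0.977), with AS effects of -2.44 and -3.20 in dim and of -2.44 and -3.31 in bright, of which the dim effects passed the test. Itgb6, Apom and Gpc6 had adjusted p between 0.314 and 0.843.

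Several lists held no call in the main fit by edgeR's quasi-likelihood test. None was made among 78 oxidative phosphorylation subunits (median interaction 0.70; 14 with an unadjusted p below 0.05, all higher), 22 antioxidant enzymes (median 0.48; 3 unadjusted) or 21 glycocalyx genes (median 0.56; 5 higher and 2 lower unadjusted), and DESeq2 called 2, 1 and 2. With mouse as a term, 2 oxidative phosphorylation and 2 glycocalyx genes were called. Without WT-bright mouse 1, 2 oxidative phosphorylation and 3 glycocalyx genes were called, without WT-dim mouse 2, 2 glycocalyx genes, without AS-dim mouse 2, 1 glycocalyx gene, and without WT-dim mouse 3, 1 glycocalyx and 1 antioxidant gene, all higher. The share of counts on mitochondrially encoded genes was 13.4%, 12.1% and 9.1% in WT-dim and 3.61%, 8.29% and 5.01% in AS-dim, and overlapped between WT-bright (2.59% to 5.61%) and AS-bright (2.82% to 5.89%). Its part in these values and in the calls was not tested. Among 19 fatty acid oxidation enzymes Hadh was called (2.42 ± 0.51, adjusted p = 0.0194). It kept the call in 6 of the 12 fits that left out a library, and the list held no call without AS-dim mouse 1 or 3, WT-bright mouse 2 or 3, or AS-bright mouse 1 or 2. It held 2 calls without WT-dim mouse 2, 4 without WT-dim mouse 3, 3 without WT-bright mouse 1 and 3 with mouse as a term. The 80 cytosolic ribosomal proteins had a median of 0.13 with 2 unadjusted, and the 28 cell cycle genes, 23 interferon-stimulated genes, 18 immediate-early genes and 14 heat shock chaperones had medians between -0.30 and 0.17 and 1 to 3 unadjusted each, where DESeq2 called 0, 1, 0, 1 and 1. The heat shock list held 1 call higher with mouse as a term, with either marker covariate and at most with a library left out. The interferon list held 1 with the proximal tubule marker mean as a covariate. MHC class I and class II genes had medians of 0.18 and 0.37 with 0 and 2 unadjusted, with median AS effects above 0 in both subpopulations. Myeloid markers (median 0.11, 2 of 16 unadjusted, 3 by DESeq2), T and NK cell markers (0.47, 0 of 11) and B cell markers (0.15, 0 of 8) were without a call, and DESeq2 called none of the latter 2 lists.

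The number of calls moved with the model and the mice. With mouse as a term of the model, 877 genes were called (646 higher, 231 lower), 538 of them among the 569. Fewer of the 569 were shared with the fits that had the leukocyte marker mean (365) or the proximal tubule marker mean (466) as a covariate, and with limma voom (365). Leaving out a library gave 252 (without AS-bright mouse 1), 308 (without AS-dim mouse 1), 312 (without AS-bright mouse 3), 344 (without AS-dim mouse 3), 372 (without WT-bright mouse 3) and 857 (without WT-dim mouse 3) calls, and 411 to 646 for the other libraries. Without both libraries of an AS mouse, 67 (mouse 1), 245 (mouse 2) and 110 (mouse 3) genes were called. None of the 569 genes changed sign in any of the 32 alternatives. The alternatives reuse the same counts, and the mice did not overlap in 443 of the 446 genes called higher and in all 123 called lower. The choice of genes therefore left little room for a change of sign.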

How the data were processed

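RNA was sequenced from 12 libraries of cells sorted by tdT brightness (150 bp paired-end). The labels name a Kapa low input RNA kit and the study's methods a stranded, poly-A selected KAPA kit. The authors aligned reads to GRCm38 with STAR and counted them per gene. The strand column that was used is not given in the sources used here. The values used were the 12 columns of raw read counts per gene that the authors deposited, in a table for each subpopulation. The 12 RPKM columns and the columns of the authors' own comparisons (log fold change, average log CPM, likelihood ratio, p-value and FDR) were not used.

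The tables were joined by Ensembl ID without spike-in rows. Counts were scaled by TMM, genes with low counts were removed by filterByExpr, and 4 group means were fitted with edgeR 4.0.16 (glmQLFit and glmQLFTest, R 4.3.3). The contrast was AS minus WT in bright minus AS minus WT in dim, with Benjamini-Hochberg adjustment over 15084 genes. Standard errors are the absolute log2 difference over the square root of F and are not given for differences near 0, where this ratio is unstable. Alternatives used DESeq2 1.42.0, limma 3.58.1, other scalings and filters, mouse as a term, marker covariates and left-out libraries. The newer edgeR quasi-likelihood fit was chosen as the main one, and the version 3 fit added as an alternative, after the files were seen.

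The dim and bright libraries of a mouse carry the same animal number, so they pair by animal. Deviations from the group means correlated at 0.076 to 0.374 within mice and -0.274 to 0.195 between mice. Such deviations cancel within a group, which lowers the values between mice. The dim library of AS mouse 1 correlated at 0.076 with its own bright library and at 0.102 with that of AS mouse 3. That of AS mouse 3 correlated at 0.16 with its own and at 0.195 with that of AS mouse 1. Each replicate is a separate mouse. Replicates were compared by a chi-square test of their counts, and none of the 12 pairs was a repeated library (31.1 to 110 per degree of freedom). Floors of 3 counts cover counting error only. Gene types and coordinates come from a Gencode M21 annotation where the authors used M16, and promoters from RefSeq. On simulated counts with 200 genes changed by 2 log2 units, the main test recovered 52 with no false calls. These counts were drawn separately for each library, without an effect of mouse.

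The genes and lists described were chosen with earlier results of these data known. Named were the 12 highest and 12 lowest protein-coding genes called (average log2 CPM above 1, AS and WT mice not overlapping), up to 4 called members per list by adjusted p, both study lists, genes the study discusses, and the 6 genes with opposite calls. Others were named after their values were seen. A few of the genes this rule selects are not reported here.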

Additional observations from a re-analysis of the deposited data

Results flagged for a closer look

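In 569 genes the genotype effect in bright cells differed from that in dim cells by the test of the difference itself, and these are the genes of the report. In 6 of them (Col4a1, Col4a2, AC154176.2, Gm45223, AC125409.1 and Gm45220) AS differed from WT in both subpopulations, in opposite directions. Groups of 3 libraries were not tested for a library far from the others. The fits that left out each library are given below.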

How the results depend on the processing

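No gene called in the main fit changed sign under any of the 32 alternatives, which use the same counts. Nearly all called genes had the AS and WT mice apart, so a change of sign was unlikely from the start. More genes were called by DESeq2 (1186, 830 higher and 356 lower), by edgeR's likelihood ratio test (1114, 811 and 303) and with mouse as a replicate block (877, 646 and 231), and fewer by limma voom (370, 311 and 59). On the simulated counts 25% of the calls of the likelihood ratio test and 25.7% of those of DESeq2 were false. The fit with mouse as a replicate block recovered 6 of the 200 changed genes there. The simulated counts had no effect of mouse, so these rates may not hold for the real libraries, which pair by mouse. Leaving out single libraries gave 252 to 857 calls (223 to 692 higher, 29 to 195 lower). Leaving out both libraries of a mouse gave 67 (62 and 5), 245 (189 and 56) and 110 (101 and 9) calls for AS mice 1 to 3, and 386 (252 and 134) for WT mouse 2. Other scalings, filters, marker covariates, a random mouse effect and the version 3 fit gave 449 to 601 calls. The share called higher was 78.4%, and 65.3% to 92.5% over the alternatives. Of 5163 comparisons of named called genes with an alternative, 1378 no longer passed, and 70 of 162 genes kept their call with each library left out. Low counts limit genes near the floor. The cause of these changes was not tested.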
